A study of Mus musculus with 6 samples.

Results

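The interleukin-1 (IL-1) and interleukin-33 (IL-33) system was described in cultured mouse fibroblasts through 10 genes of the 25140 in the deposited table, found by their symbols: *Il1r1*, *Il1rap*, *Il1r2*, *Il1rn*, *Sigirr*, *Il1a*, *Il1b*, *Il33*, *Il1rl1* and *Il1rl2*. They were chosen by name with their measured differences between TGFβ and vehicle in these libraries already known, so the fold changes below describe these libraries and are not independent evidence. The cells were primary fibroblasts of the adult heart of C57BL/6 mice at passage 1, with no deletion or transgene named in the labels. Their serum was reduced to 1% for 16 h by the labels (24 h by the study's methods), and they then received vehicle or 10 ng/mL transforming growth factor-β (TGFβ) for 24 h. The study's results call the sequenced cells mouse embryonic fibroblasts, whereas its methods and the labels call them cardiac fibroblasts. Polyadenylated RNA was sequenced in 3 vehicle libraries, called A, B and C here, and 3 TGFβ libraries, called D, E and F, where the letters are only names.

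IL-1α and IL-1β are inflammatory cytokines that bind the receptor encoded by *Il1r1*, which signals after it recruits the accessory protein encoded by *Il1rap*. IL-33, a nuclear cytokine released from damaged cells, uses the same accessory protein with its own receptor ST2, encoded by *Il1rl1*. The receptors share an intracellular TIR domain that binds the adaptor MyD88 and leads to activation of NF-κB, and the system has its own brakes in a decoy receptor (*Il1r2*), a receptor antagonist (*Il1rn*) and an inhibitory receptor (*Sigirr*). Fibroblasts are known as responders to IL-1, and in the heart IL-33 is known as a product of stromal and endothelial cells.

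The libraries held 27851677 to 31072338 counts. Expression is given as CPM, each library's counts divided by its total and scaled with TMM factors, a correction for differences in library composition. Over the 12 fibroblast markers, the summed level lay between 53809 and 65319 CPM, led by *Col1a1*, *Col3a1* and *Col1a2*. With TGFβ, edgeR called 8 of the 12 lower and 2 higher, beside 19.9% and 20.6% of all tested genes. Summed TGFβ targets were at 5528 to 5938 CPM with vehicle and at 15634 to 16026 CPM with TGFβ. The 9 endothelial markers summed to 475 to 739 CPM with vehicle and 432 to 602 CPM with TGFβ, and the listed leukocyte markers to 262 to 376 CPM and 227 to 339 CPM. Of 9 tested endothelial and 11 tested leukocyte markers, edgeR called 0 in either direction. At an unadjusted p under 0.05 these were 0 endothelial markers and 1 leukocyte marker (lower), and DESeq2 called 0 and 1. The cardiomyocyte sum of 27.6 to 60.1 CPM came mostly from *Tnnt2*, while *Myh6* was at 0.536 CPM or less. Of 7 tested smooth muscle and pericyte markers, 1 was called higher and 1 lower. In such bulk samples, fewer cells of a type and less RNA per cell cannot be told apart.

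The stretches in front of the annotated starts are shown for *Il1r1* and *Il33*, whose groups lay far apart, and for *Il1rl1*, which encodes the IL-33 receptor and had its higher values with TGFβ. Each has 2 starts in the RefSeq table. That table (build GRCm38.p6, the assembly also called mm10) held 14 such windows for 9 of the 10 genes, each taken here as the 250 bases before a start. All 6 are on the plus strand and are written 5′ to 3′, with GGAATG, a core sequence bound by TEAD factors, or its reverse complement CATTCC in capitals.
Il1r1, upstream start, chr1:40224830-40225079: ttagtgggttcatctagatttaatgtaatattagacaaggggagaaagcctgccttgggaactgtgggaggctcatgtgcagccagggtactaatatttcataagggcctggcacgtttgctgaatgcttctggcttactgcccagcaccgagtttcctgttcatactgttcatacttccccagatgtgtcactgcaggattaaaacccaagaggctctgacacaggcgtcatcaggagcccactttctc
Il1r1, downstream start, chr1:40266336-40266585: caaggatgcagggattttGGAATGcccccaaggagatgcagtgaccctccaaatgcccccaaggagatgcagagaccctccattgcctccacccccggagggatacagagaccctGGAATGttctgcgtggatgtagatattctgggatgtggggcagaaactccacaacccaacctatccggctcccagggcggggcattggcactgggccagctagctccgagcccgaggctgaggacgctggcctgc
Il33, upstream start, chr19:29924863-29925112: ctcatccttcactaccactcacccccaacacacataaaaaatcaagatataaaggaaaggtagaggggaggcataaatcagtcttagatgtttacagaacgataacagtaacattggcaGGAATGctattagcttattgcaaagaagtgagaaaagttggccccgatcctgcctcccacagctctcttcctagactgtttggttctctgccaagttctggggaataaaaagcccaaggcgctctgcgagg
Il33, downstream start, chr19:29945540-29945789: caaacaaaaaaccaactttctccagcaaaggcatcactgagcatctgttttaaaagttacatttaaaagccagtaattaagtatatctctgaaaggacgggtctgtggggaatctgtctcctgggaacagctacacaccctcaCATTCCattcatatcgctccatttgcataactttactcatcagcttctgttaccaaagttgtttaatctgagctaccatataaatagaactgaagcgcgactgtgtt
Il1rl1, upstream start, chr1:40429320-40429569: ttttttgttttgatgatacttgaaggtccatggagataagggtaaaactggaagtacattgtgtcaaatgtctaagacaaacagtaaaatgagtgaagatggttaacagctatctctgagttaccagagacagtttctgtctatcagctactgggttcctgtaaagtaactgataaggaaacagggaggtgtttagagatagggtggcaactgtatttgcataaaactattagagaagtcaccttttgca
Il1rl1, downstream start, chr1:40439379-40439628: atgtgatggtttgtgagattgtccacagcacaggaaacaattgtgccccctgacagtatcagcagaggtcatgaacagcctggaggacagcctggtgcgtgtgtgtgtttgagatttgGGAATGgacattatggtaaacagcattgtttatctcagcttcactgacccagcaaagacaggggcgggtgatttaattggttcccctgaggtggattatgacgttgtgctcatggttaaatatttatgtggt

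The motif GGAATG, searched on both strands, was found in 5 of the 14 windows of these genes and in 12.6% of all 32851 windows. The downstream window of *Il1r1* held it at 2 places, 232 to 227 and 135 to 130 bases before the start. Both windows of *Il33* held it, at 131 to 126 bases before the upstream start and, on the minus strand, at 107 to 102 bases before the downstream start. The other 2 matches were in the downstream window of *Il1rl1* and in one window of *Il1rn*. Of the other motifs, AP-1 (TGANTCA) occurred in 2 of the 14 windows, those of *Il1rn* and *Il1a*, and in 6.75% of all windows. The κB motif (3 G, any 2 bases, then TTTCC) occurred in 1, a window of *Il1rn* (1.41% of all windows). The SMAD motif CAGACA occurred in 1, that of *Il1rl2* (17.1% of all windows), and its palindromic form GTCTAGAC in 0 (0.167% of all windows). In base composition, the *Il1rap* window stood at 74.4% GC with 30 CG dinucleotides, whereas the 2 windows of *Il1rl1* stood at 37.6% and 46.4%, beside a median of 52.4% over all windows. These matches are descriptions of the letters and say nothing of binding.

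Transcripts for the IL-1 receptor, its accessory protein, the decoy receptor and IL-33 were lower in the TGFβ libraries, by 1.58-fold for *Il1rap* to 3.83-fold for *Il1r2*. Of the 10 genes, 7 passed the filter on low counts, and *Il1r2* passed it only through the vehicle libraries. The fit over all 14334 genes that passed (edgeR, quasi-likelihood) called 5 of them lower and 0 higher at a Benjamini-Hochberg adjusted p under 0.05. Of all tested genes, 19.9% were called lower, 20.6% higher and 40.5% in either direction. At an unadjusted p under 0.05, 6 of the 7 were lower and 0 higher, and the same counts were called with DESeq2 and with limma-voom. Among the 5, 3 had a log2 fold change under -1 (*Il1r1*, *Il1r2* and *Il33*), beside 4.28% of tested genes. The TGFβ libraries lay below all vehicle libraries for 6 of the 7, as they did for 26.1% of tested genes, and above them for 0, beside 27.2% of tested genes and 53.3% for both directions. For any single gene, an exact permutation test of 3 libraries against 3 cannot give a two-sided p below 0.1.

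**Figure D1:**
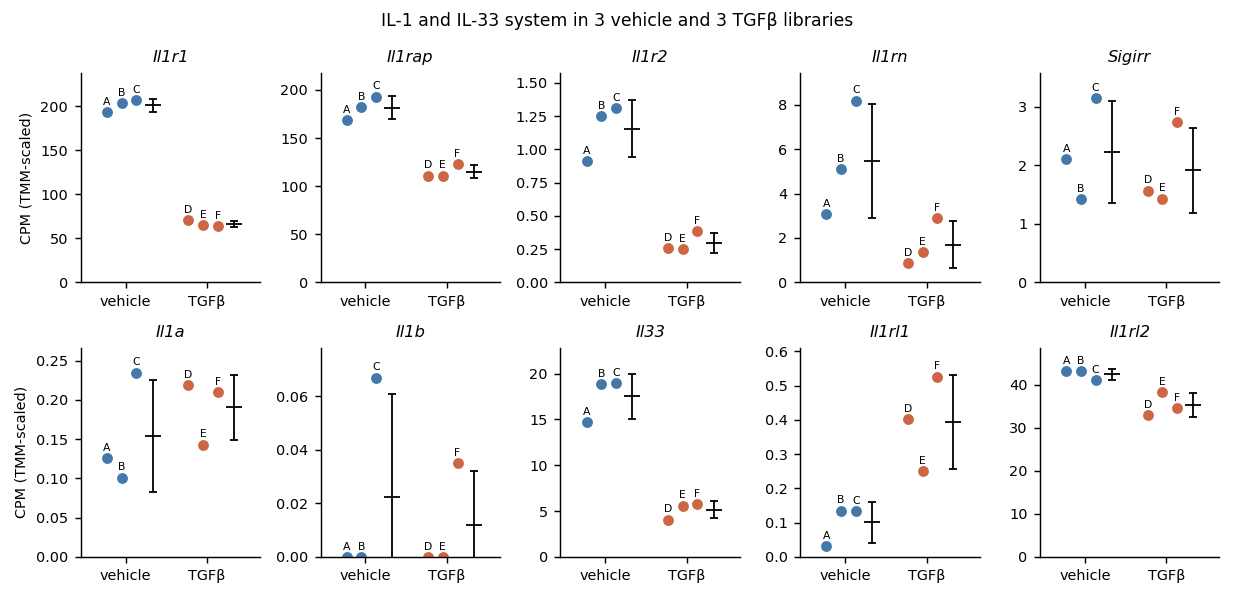
Expression in CPM (linear axes from 0, with a range of their own for each gene) of the 10 genes in vehicle libraries A to C and TGFβ libraries D to F; points are libraries, and black bars give the mean ± SD of 3 libraries. The TGFβ libraries lay below every vehicle library for *Il1r1*, *Il1rap*, *Il1r2*, *Il1rn*, *Il33* and *Il1rl2*, above them for *Il1rl1*, and among them for *Sigirr*, *Il1a* and *Il1b*.

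*Il1r1* (ENSMUSG00000026072; chromosome 1, 40225080 to 40317257, plus strand, GENCODE M21 on GRCm38) encodes the signalling IL-1 receptor. Its expression was 193, 204 and 207 CPM in vehicle libraries A, B and C and 70.4, 65.0 and 64.3 CPM in TGFβ libraries D, E and F. The groups were far apart, with means of 201 ± 7.49 and 66.6 ± 3.35 CPM (SD, n = 3 each), so that TGFβ stood at 33.1% of vehicle. The log2 fold change, with its standard error (SE), was -1.60 ± 0.0511 (SE), and 98.4% of all tested genes had a higher one. Behind these values stood at least 1816 counts in each library.

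*Il1rap* (ENSMUSG00000022514; chromosome 16, 26581704 to 26730117, plus strand) encodes the accessory protein shared by the receptors for IL-1, IL-33 and IL-36. It was measured at 169, 182 and 193 CPM with vehicle and at 111, 111 and 123 CPM with TGFβ. All TGFβ libraries were lower, but by less than for *Il1r1*: A to C averaged 181 ± 12.3 CPM and D to F 115 ± 6.62 CPM (SD over 3 libraries), a difference of -0.66 on the log2 scale (SE 0.0625). The annotation places an antisense gene, *Gm20319*, over 552 exon bases of *Il1rap*, and whether counting used the strand is not given in the sources used here.

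The 2 chains of the IL-1 receptor complex therefore changed unequally within libraries. The count of *Il1r1* divided by that of *Il1rap*, which needs no scaling between libraries, was 1.14, 1.12 and 1.07 in A, B and C and 0.635, 0.584 and 0.524 in D, E and F. The groups did not overlap, and the mean log2 ratio differed by -0.94. Since the 2 genes differ in length, only the change of this ratio can be read, not its size.

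*Il1r2* (ENSMUSG00000026073; chromosome 1, 40074079 to 40125231, plus strand) encodes a decoy that binds IL-1 without signalling. It was near the limit of detection, with 29, 37 and 39 counts in A, B and C and 7, 7 and 11 in D, E and F. In CPM this was 0.911, 1.25 and 1.31 with vehicle and 0.256, 0.251 and 0.386 with TGFβ, with no overlap. The log2 fold change of -1.94 (SE 0.285) was the lowest among the 7, and 99.2% of tested genes had a higher one. As its TGFβ counts were too low to pass the filter by themselves, a tested gene with so few counts with TGFβ had to be lower there. The antisense gene *Gm16894* within its bounds had 12 counts over all libraries, against 130 for *Il1r2*, and shared 0 exon bases with it.

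*Il1rn* (ENSMUSG00000026981; chromosome 2, 24336853 to 24351494, plus strand) encodes the IL-1 receptor antagonist. Expression was 3.08, 5.09 and 8.18 CPM in A, B and C and 0.877, 1.36 and 2.88 CPM in D, E and F. The groups did not overlap, but each varied widely, with C and F highest in their groups. The log2 fold change of -1.67 had a standard error of 0.529, and with an adjusted p of 0.0504 from edgeR it was not called. It was called with DESeq2 (adjusted p = 0.000467) and with limma-voom (adjusted p = 0.0341), and the adjusted p ranged from 0.000467 to 0.169 over all alternatives.

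Libraries C and F were also the highest of their groups in the summed endothelial markers, at 475, 541 and 739 CPM in A, B and C and 432, 482 and 602 CPM in D, E and F. The sum of the leukocyte markers was ordered in the same way, at 262, 276 and 376 CPM and 227, 244 and 339 CPM. It came mostly from *Lyz2*, at 201, 206 and 290 CPM and 172, 176 and 258 CPM. Among tested leukocyte markers, all but *Ptprc*, *Tyrobp* and *Itgax* were highest in C and in F, and *Itgax* was lowest in both. These exceptions were named after their values were seen. Of these lists the highest genes were *Cdh5*, *Pecam1* and *Tek* for endothelium and *Lyz2*, *Adgre1* and *Csf1r* for leukocytes. Every endothelial marker of the list except *Tek* was highest in C and in F. *Tek* did not follow the summed order and was lowest in C and F. It was at 79.7, 92.7 and 74.6 CPM in A, B and C and 94.8, 115 and 83.8 CPM in D, E and F. The sums of both lists overlapped between the groups. Among tested leukocyte markers, 1 lay below all vehicle libraries in the TGFβ libraries and 0 above. This was *Cd14*, named after its values were seen. It was at 10.2, 11.2 and 17.8 CPM in A, B and C and 5.74, 7.99 and 9.54 CPM in D, E and F. The part of these cells in the *Il1rn* values was not tested.

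*Sigirr* (ENSMUSG00000025494; chromosome 7, 141091175 to 141100572, minus strand) encodes an inhibitory receptor of the family. It was at 2.11, 1.42 and 3.15 CPM with vehicle and 1.57, 1.43 and 2.74 CPM with TGFβ, and the groups overlapped. On the log2 scale the difference was -0.21 (SE 0.353, edgeR's adjusted p = 0.666) and turned to 0.12 without vehicle library C, so no direction can be given. Relative to *Il1r1*, counts of *Sigirr* were 0.0109, 0.00693 and 0.0153 with vehicle and 0.0223, 0.0220 and 0.0426 with TGFβ, higher in all TGFβ libraries by a mean log2 ratio of 1.39. This ratio mostly restates the lower *Il1r1* (log2 fold change -1.60) and shows no gain of *Sigirr*. The same ratio for *Il1rn* to *Il1r1* was 0.0160, 0.0249 and 0.0396 against 0.0125, 0.0209 and 0.0448 and overlapped between the groups.

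*Il33* (ENSMUSG00000024810; chromosome 19, 29925114 to 29960718, plus strand) was the IL-1 family cytokine with the most reads among those listed. It was expressed at 14.7, 18.9 and 19.0 CPM with vehicle and 4.06, 5.59 and 5.79 CPM with TGFβ. No libraries overlapped, and the TGFβ mean of 5.14 ± 0.946 CPM was 29.3% of the vehicle mean of 17.6 ± 2.44 CPM (SD, n = 3 each). On the log2 scale it differed by -1.77 (SE 0.156), below the value of 98.9% of tested genes. Libraries A and D were the lowest of their groups for *Il33*, and also for the sums of the endothelial and leukocyte markers above. Of the endothelial markers named there, this held for *Cdh5* but not for *Tek*, which was lowest in C and F. For *Pecam1*, D (75.4 CPM) was not below E (74.9 CPM). In the rest of the endothelial list it held for *Kdr*, *Tie1*, *Emcn* and *Vwf* but not for *Egfl7* and *Cldn5*. Among tested leukocyte markers it held for all but *Itgax*, *Fcer1g* and *Cx3cr1*. These were named after their values were seen. The part of these cells in the *Il33* values was not tested.

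Reads of IL-1 itself were few. *Il1a* (chromosome 2, 129299610 to 129309972, minus strand) had 4, 3 and 7 counts with vehicle and 6, 4 and 6 with TGFβ, a ratio of the groups of 1.25 with an exact 95% interval from 0.57 to 2.76 that covers counting error only. The gene *Gm14023* on the opposite strand shares 222 exon bases with *Il1a* and had 62 counts, more than the 30 of *Il1a*, so reads of the pair may not be separable. *Il1b* (chromosome 2, 129364570 to 129371139, minus strand) had 0, 0 and 2 counts with vehicle and 0, 0 and 1 with TGFβ. At this depth no difference in *Il1a* or *Il1b* could be detected, and both groups of *Il1b* were within 3 counts.

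*Il1rl1* (ENSMUSG00000026069; chromosome 1, 40429570 to 40465415, plus strand), the receptor for IL-33, had few reads and the opposite direction. It had 1, 4 and 4 counts with vehicle and 11, 7 and 15 with TGFβ, with every TGFβ library above every vehicle library. Over the groups this was 9 against 33 counts, a ratio of 4.0 in CPM with an exact 95% interval from 1.87 to 9.49, which covers counting error only. It did not pass the filter on low counts. Without that filter its log2 fold change was 1.95 (SE 0.551; adjusted p = 0.00684 from edgeR), in a fit that called 12.0% of 25140 genes higher.

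ST2 is known as a marker of mast cells and of type 2 innate lymphoid cells. Of the 7 listed markers of those cells, 4 were tested. Of these, edgeR called 0 higher and 1 lower, beside 20.6% and 19.9% of all tested genes. At an unadjusted p under 0.05, 1 was higher, and DESeq2 called 0 in either direction. The 1 lower was *Mcpt4*, a mast cell protease, at 0.409, 0.472 and 0.369 CPM with vehicle and 0.0731, 0.143 and 0.210 CPM with TGFβ, and like *Il1r2* it passed the filter only through the vehicle libraries. *Fcer1a* had at most 3 counts in each group, and the sum of the list, led by *Kit*, was 29.9 to 45.4 CPM with vehicle and 22.7 to 33.4 CPM with TGFβ. *Gata3*, a factor of innate lymphoid cells and the 1 gene past the unadjusted p, was at 5.34, 3.34 and 4.63 CPM with vehicle and 6.00, 5.34 and 6.17 CPM with TGFβ, and the groups overlapped (log2 fold change 0.39, edgeR's adjusted p = 0.0987). The part of these cells in the *Il1rl1* values was not tested.

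*Il1rl2* (ENSMUSG00000070942; chromosome 1, 40324610 to 40367562, plus strand) encodes the receptor for IL-36 and is counted with the system for its kinship and its place in the genome. Expression was 43.1, 43.2 and 41.0 CPM with vehicle and 33.0, 38.3 and 34.6 CPM with TGFβ. The groups did not overlap, but the difference was small, a log2 fold change of -0.27 (SE 0.0607) or 83.1% of the vehicle mean. The adjusted p values of the 5 genes called lower ran from 1.31e-06 for *Il1r1* to 0.00877 for *Il1rl2*.

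**Figure D2:**
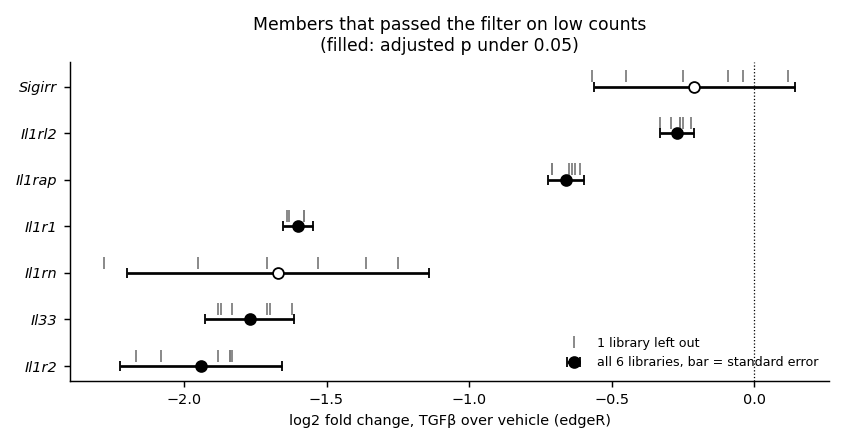
TGFβ against vehicle, as log2 fold changes, in the 7 genes that passed the filter (points, with bars of 1 standard error; filled where the adjusted p was under 0.05) and the values with 1 library left out (grey ticks). *Il1r1* stayed between -1.64 and -1.58 and *Il33* between -1.88 and -1.62, *Il1rn* spread from -2.28 to -1.25, and only *Sigirr* crossed 0, reaching 0.12.

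Levels were compared between genes as CPM per kilobase of the union of annotated exons. In vehicle, *Il1r1* stood highest at 31.6 ± 1.18 and *Il1rap* second at 16.0 ± 1.08 CPM per kb (SD, n = 3). *Il1rl2* at 6.23 ± 0.185 and *Il33* at 6.08 ± 0.845 came next, and their libraries overlapped. *Il1rn* at 0.985, *Sigirr* at 0.731 and *Il1r2* at 0.606 CPM per kb followed, each overlapping with its neighbour in the order. *Il1a*, *Il1rl1* and *Il1b* were at 0.0779, 0.0145 and 0.0117 CPM per kb, the last pair overlapping.

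With TGFβ, *Il1r1* at 10.5 ± 0.526 and *Il1rap* at 10.1 ± 0.583 CPM per kb of exon (SD, n = 3) overlapped. Both the order of these 2 genes and this overlap depend on the length used. Divided by the longest transcript, vehicle levels were 40.1 CPM per kb for *Il1rap* and 34.6 for *Il1r1*, so that *Il1rap* led. With TGFβ the same length gave 25.4 for *Il1rap* and 11.4 for *Il1r1*, and the libraries did not overlap. The IL-33 receptor remained far below its ligand in both groups: *Il33* was at 1.78 and *Il1rl1* at 0.0570 CPM per kb with TGFβ.

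**Figure D3:**
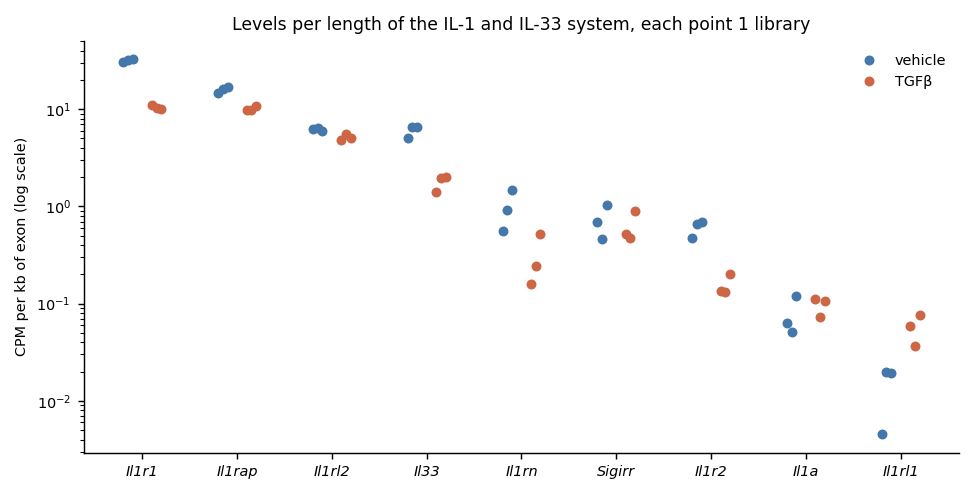
Expression per length (CPM per kb of exon, log axis) in each vehicle and TGFβ library for 9 of the 10 genes, ordered by the vehicle mean; *Il1b* is left out because 4 of its 6 libraries had 0 counts. *Il1r1* stood apart from *Il1rap* with vehicle (31.6 against 16.0) and overlapped with it with TGFβ (10.5 against 10.1), which does not hold with the longest transcript as length (11.4 against 25.4).

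The receptor genes, *Il1r2*, *Il1r1*, *Il1rl2* and *Il1rl1* lie in this order on the plus strand of chromosome 1 within 391 kb. The tested genes of this cluster were all called lower, beside 19.9% of all tested genes, but by unequal amounts. Of these, *Il1r2* passed the filter on low counts only through the vehicle libraries and so had to be lower. *Il1r1* and *Il1rl2* are separated by 7.35 kb, yet their log2 fold changes were -1.60 and -0.27. *Il1rl1*, 62.0 kb further on, did not pass the filter on low counts. It had its higher counts with TGFβ, 33 over the group against 9 with vehicle. *Map4k4*, a kinase gene that lies 47.8 kb before *Il1r2*, fell from a mean of 701 ± 76.1 CPM to one of 385 ± 11.1 CPM (SD, n = 3 each), with a log2 fold change of -0.86 and an adjusted p of 7.81e-05 from edgeR. Beyond *Il1rl1*, *Il18r1* was not among the 25140 genes listed, so it has no counts here. *Il18rap*, a chain of the IL-18 receptor, had 2, 1 and 4 counts with vehicle and 10, 3 and 7 with TGFβ, which overlapped. *Gm3646*, the outermost gene considered, had 1 count in each group.

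**Figure D4:**
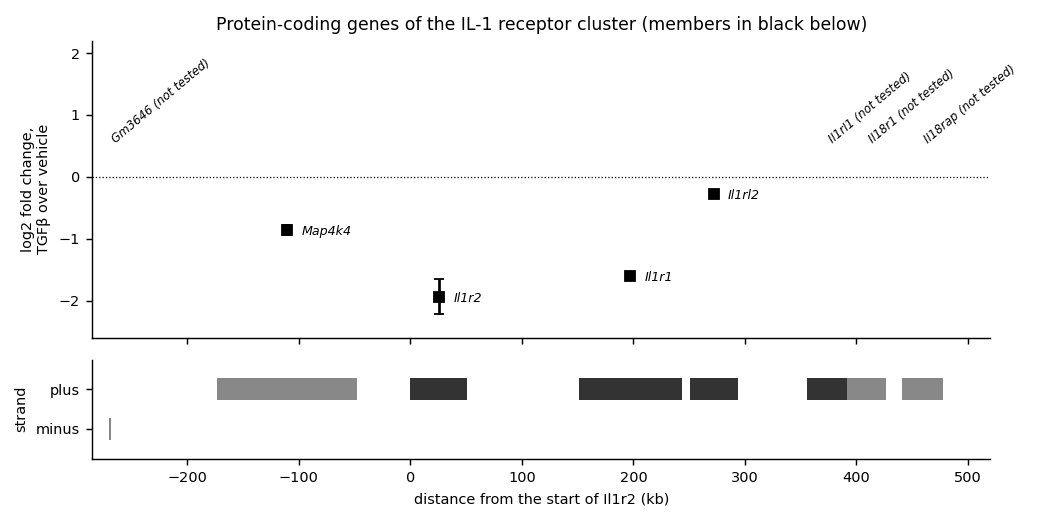
Log2 fold change of TGFβ over vehicle (squares at gene centres, with bars of 1 standard error, filled where the adjusted p was under 0.05) against the distance from the start of *Il1r2* in kb, with gene bounds and strand below (black for genes of the system, grey for neighbours). *Il1r2* and *Il1r1* lay at -1.94 and -1.60, *Map4k4* at -0.86 and *Il1rl2* at -0.27. In the region 4 genes were not tested, among them *Il18r1*, which was not among the genes listed.

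The 5 lists of other genes of the pathway were then read from the same fit, which called 19.9% of all tested genes lower and 20.6% higher. Genes they name with an absolute log2 fold change under 1 were picked after their values were seen. Among the other ligands, receptors and binding proteins of the family, 2 of 6 listed genes were tested and 1 fell: *Il18bp*, which encodes the protein that neutralizes IL-18 (log2 fold change -0.96, adjusted p = 0.00558). *Il18* itself was at 0.723, 0.910 and 0.536 CPM with vehicle and 0.402, 0.573 and 0.842 CPM with TGFβ and overlapped.

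Of the 14 inflammasome and IL-1 processing genes, 10 were tested. Among these, 3 were called higher and 3 lower, beside 20.6% and 19.9% of all tested genes. Their median was -0.30 on the log2 scale, beside -0.001 over all genes tested. *Pycard*, which encodes the inflammasome adaptor ASC, fell from 1.92, 2.09 and 2.51 CPM to 0.658, 0.859 and 0.772 CPM (log2 fold change -1.50, adjusted p = 0.000638). *Casp4* (-0.81) and *Gsdmd* (-0.41), a caspase that senses lipopolysaccharide and the pore protein it cleaves, also fell. The 3 that rose were *Aim2* (0.38), *Casp8* (0.19) and *Capn2* (0.19), and these calls were the least stable, with 0 higher at an adjusted p of 0.01 and 1 without vehicle library C or TGFβ library E. Without vehicle library A, 5 genes of the list were lower.

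Of 19 tested adaptors and kinases below the receptors, 4 were called higher and 6 lower, with a median of -0.03. Over all tested genes these shares were 20.6% higher and 19.9% lower. *Peli3*, which encodes an E3 ubiquitin ligase that acts on IRAK proteins, fell by 1.02 on the log2 scale (adjusted p = 0.00239). *Myd88*, the adaptor of the TIR domain, fell from 49.9, 51.2 and 55.3 CPM to 28.7, 31.7 and 33.5 CPM (log2 fold change -0.74, adjusted p = 9.09e-05). *Irak3*, which encodes an inhibitory member of the IRAK family, had a log2 fold change of -0.90, whereas *Irak2*, a kinase-like partner of MyD88, rose by 0.62. The others that rose, *Map3k7*, *Chuk* and *Ube2n*, changed by 0.22, 0.22 and 0.15.

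Of 13 NF-κB subunits and inhibitors, 11 fell and 0 rose, also with DESeq2, limma-voom or an unadjusted p, and the median was -0.37. By edgeR's adjusted p, 19.9% of all tested genes fell and 20.6% rose. The lowest 3 were genes of the IκB family, *Nfkbia*, *Bcl3* and *Nfkbie*. *Nfkbia*, which encodes IκBα and is itself induced by NF-κB, was at 82.0, 78.9 and 90.2 CPM with vehicle and 35.1, 32.3 and 44.7 CPM with TGFβ (log2 fold change -1.16, adjusted p = 0.000586). *Bcl3* (-1.05), which encodes a nuclear IκB protein that can act as a co-activator, and *Nfkbie* (-1.03), which encodes the inhibitor IκBε, were close to it. The list thus mixes activating subunits with inhibitors, and both kinds fell. *Rel* (-0.09) and *Nfkbid* (-0.18) did not pass the test.

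Of 30 genes known to be induced by IL-1 in fibroblasts, 28 were tested. Among these, 19 fell, 2 rose and 7 did not pass the test, with a median of -1.15. By edgeR's adjusted p, the shares over all tested genes were 19.9% lower and 20.6% higher. DESeq2 and an unadjusted p under 0.05 each gave 22 lower and 3 higher, and limma-voom gave 20 lower and 3 higher. *Il6* was not called by edgeR (log2 fold change 0.44, adjusted p = 0.0702), though its TGFβ libraries lay above all vehicle libraries. The other genes not called had negative log2 fold changes. The neutrophil chemokine *Cxcl5* fell from 428, 538 and 590 CPM to 45.9, 44.9 and 74.5 CPM (log2 fold change -3.23, adjusted p = 0.00038). *Steap4*, a metalloreductase gene, fell by 2.79, and the chemokine genes *Cxcl2* and *Cxcl1* fell by 2.68 and 2.57 on the log2 scale, where *Cxcl2*, with 6, 8 and 14 counts with TGFβ, passed the filter only through the vehicle libraries. The list did not move as a whole. *Ptgs2*, which encodes cyclooxygenase-2, rose from 11, 6.71 and 12.3 CPM to 67.0, 35.8 and 72.9 CPM (log2 fold change 2.55, adjusted p = 0.00355), and *Lif*, an IL-6 family cytokine, rose by 1.67. These genes respond to other stimuli too, and the lists were drawn up with earlier results of these data known.

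**Figure D5:**
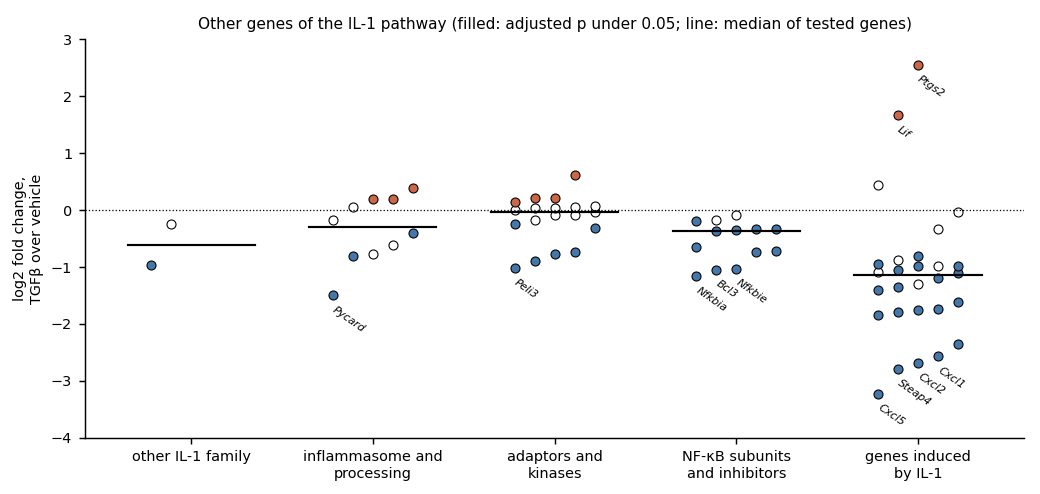
Differences between TGFβ and vehicle, as log2 fold changes, of each tested gene of the 5 lists of other pathway genes (filled points passed an adjusted p of 0.05, blue lower and orange higher; black lines are medians of the tested genes). NF-κB genes had 11 called lower and 0 higher of 13, and genes induced by IL-1 had 19 lower and 2 higher of 28, with medians of -0.37 and -1.15. Over all tested genes, 19.9% were called lower and 20.6% higher.

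The genes whose pattern over the 6 libraries was most like that of the members with the largest change were found by the root mean square difference of log2 CPM, centred on each gene's mean, among 14333 other tested genes. For *Il1r2* they included *Serpina3c* (0.0760) and *Pm20d2* (0.0951). For *Il33* they were *Entpd2* (0.0613), an ecto-nucleotidase gene, *Adora2b* (0.0633), an adenosine receptor gene, and *Sept4* (0.0828), a septin gene. *Entpd2*, the closest to *Il33*, was at 27.1, 36.6 and 33.0 CPM with vehicle and 7.57, 9.60 and 10.7 CPM with TGFβ. As *Il1r2* and *Il33* were lower with TGFβ, genes chosen for the same pattern had to be lower too. The measure rests on 6 libraries in 2 groups.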

How the data were processed

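RNA-seq was performed on 3 vehicle and 3 TGFβ samples; the ATAC-seq data were not used here. By the study's methods, the authors built libraries with a stranded mRNA kit, read 75 bases from 1 end on a HiSeq instrument, took mm10 as the genome and applied DESeq2. Aligner, counter, annotation and strand setting are not given in the sources used here. The authors deposited raw counts per gene and library without normalization, beside their own mean, fold change and p-value columns, which were not used. The count columns name the group but no replicate, and 0 columns of per-sample values were left out. Whether replicates came from separate animals is not given in the sources used here, so p-values measure the spread between these samples. Replicates differed beyond sampling noise (chi-square per gene of 7.41 to 25.0), so none was counted as a repeat.

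edgeR 4.0.16 (R 4.3.3) gave TMM factors, the filterByExpr filter and the robust quasi-likelihood test over 14334 genes, with Benjamini-Hochberg adjustment and a threshold of 0.05. A standard error is the fold change over the square root of F. CPM are counts over TMM-scaled sizes. Alternatives were DESeq2's size factors, upper quartile scaling, DESeq2 1.42.0, limma-voom (limma 3.58.1), no filter, a filter of 1 CPM in 3 libraries, a threshold of 0.01, a limit of 1 on the log2 fold change, each library left out, and the longest transcript as length; edgeR without robust dispersion was added after seeing the data. Counting intervals are exact at 95%. Fits were tested on simulated data. Gene positions come from GENCODE M21, to which 25086 of 25140 identifiers matched. Promoter windows were searched over the 250 bases before the start only. The members and lists were chosen with earlier results of these data known. Named genes are the members, up to 4 genes per direction and list with an absolute log2 fold change of at least 1, the cluster's neighbours, the 3 genes most like *Il1r2* and *Il33*, and up to 3 markers per list with the highest level, beside those said to be chosen later. A few genes covered by this rule are not reported here.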

Additional observations from a re-analysis of the deposited data

How the results depend on the processing

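The 5 genes called lower kept their direction and their call under every other tool, scaling and filter, at an adjusted p of 0.01 and with each library left out, wherever they were tested; with a log2 fold change beyond 1 as well, *Il1rap* (-0.66) and *Il1rl2* (-0.27) would not be called. *Il1r2* was not testable with a filter of 1 CPM in 3 libraries. In the other filtered fits its TGFβ counts were too low to pass by themselves, so its direction there was set by the filter. Without that filter its log2 fold change was -1.96 with DESeq2 and -1.93 with edgeR. *Il1rn* was at -1.68 with DESeq2, -1.70 with limma-voom, -1.67 with the 1 CPM filter and -1.67 without robust dispersion (added after seeing the data), past the threshold in each, and between -2.28 and -1.25 with 1 library left out; it was called without vehicle library A (adjusted p = 0.0308, edgeR) and without TGFβ library F (adjusted p = 0.0246). *Sigirr* ranged from -0.57 to 0.12 and the log2 ratio of *Il1rn* to *Il1r1* (-0.15 with all libraries) ranged from -0.64 to 0.29, at 0.18 without vehicle library C and 0.29 without TGFβ library D. *Il1rl1* made 1 gene called higher with DESeq2 and 1 with no filter, and 0 to 1 with 1 library left out (1 without B, C or E). With 1 library left out it could pass the filter only through TGFβ libraries D and F. Its direction in those fits was therefore set by the filter and is no support for a rise. The inflammasome list had 5 lower with no filter and 0 higher at an adjusted p of 0.01; leaving out 1 library gave 3 to 5 lower (5 without A) and 1 to 3 higher (1 without C or E). With the longest transcript, vehicle levels were 34.6 CPM per kb for *Il1r1*, 0.814 for *Il1r2*, 40.1 for *Il1rap*, 10.9 for *Il1rl2*, 2.13 for *Il1rn* and 1.12 for *Sigirr*. Over all genes, 2954 were called higher and 2850 lower, against 1880 and 1739 at an adjusted p of 0.01, and 345 and 613 with a log2 fold change beyond 1. No scaling moved the median of all genes by over 0.021. No paired analysis was possible because the columns of counts carry no replicate numbers. Counts under about 10 per library limit *Il1r2*, *Il1rl1*, *Il1a* and *Il1b*. The cause of these shifts was not tested.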
